A study of Caenorhabditis elegans with 4 samples.

Results

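The step from the third to the fourth larval stage was compared in whole worms of the *Caenorhabditis elegans prg-1* mutant, from 1 poly(A) RNA library at L3 and 1 at L4. Both groups carried the allele *wm161* of *prg-1*, the gene of the Argonaute protein that binds 21U-RNAs, and were raised at 20°C on *E. coli* OP50, so they differ by stage alone as far as the labels say. The series also holds 1 mutant library each from L1 and L2, whose values are given beside the others. Levels are in FPKM, the number of sequenced fragments a gene drew after correction for its transcript length and for the size of the library, and each carries the 95% interval computed by Cufflinks. A gene entered the comparison if its estimate had the status OK in both libraries and its FPKM was at least 1 in one of them. Of the 46096 genes listed, 15217 did so, 12976 of them protein-coding. At this bound *rom-2* was just inside, with 0.703 FPKM at L3 and 1.00 at L4, and ZK673.11 was just outside, with at most 0.9997 FPKM.

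L4 is the last larval stage before the adult. During it the hermaphrodite germ line makes sperm and then turns to oocytes, the vulva and uterus take shape, and the epidermis lays down the collagens of the adult cuticle at the final molt. Yolk proteins, made in the intestine and taken up by oocytes, mark the passage to the adult, while PRG-1 and other small RNA proteins act mainly in the germ line.

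A gene was taken as higher or lower at L4 when log2 of FPKM plus 1 differed by at least 1 and the intervals did not overlap. By this rule of size 550 of the 15217 genes (3.61%) were higher at L4 and 83 (0.545%) were lower. Among protein-coding genes the shares were 3.84% (498 genes) and 0.532% (69 genes). Each stage has 1 library, so no difference has a replicate check and no p-value was computed. An interval describes the estimate in its own library and not the spread between cultures. The median log2 difference of all measured genes was -0.00, with quartiles at -0.24 and 0.28, and 72.4% of the genes differed by less than 0.5. The low values put the depth of the L4 library at 1.01 times that of L3. In 2807 of the measured genes (18.4%) the FPKM lay outside its own interval in at least one stage, so that the level is uncertain, and 124 of the higher genes and 30 of the lower ones were among them. Whole worms do not separate more cells of a type from more RNA per cell. The plot of levels at L3 against L4 shows most genes along the diagonal, and a group of genes near 0 at L3 that stood far above it at L4.

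**Figure D1:**
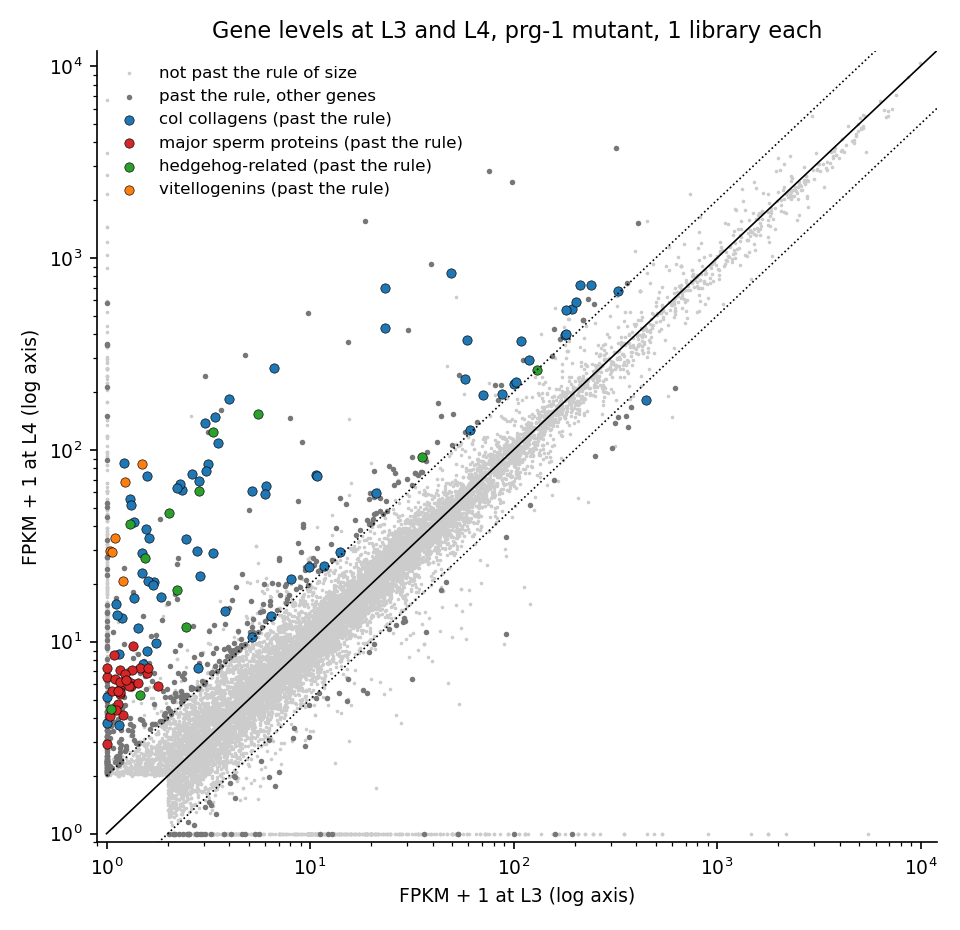
Each point is 1 of 15217 genes, with FPKM plus 1 at L3 on the x axis and at L4 on the y axis, both logarithmic. The solid line marks equal levels and the dotted lines a 2-fold difference, and colour marks members of 4 families only where they passed the rule, so that their place outside the dotted lines is set by it. All of these lie above the upper line except *col-103*, the collagen below.

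The labels were set beside the levels of known genes. Transcripts of *prg-1* itself were present at 11.02, 11.7, 12.96 (11.5 to 14.4) and 23.6 FPKM (21.6 to 25.6) for L1 through L4, and a level over the whole gene does not check the allele. *lin-28* and *lin-14*, timing genes of the early larva, were highest at L1, with 81.03 and 45.4 FPKM, and lowest at L4, with 13.8 and 19.2 FPKM. Both were named after their values were seen, so their order is no independent check of the labels. The list of 14 measured heterochronic genes had a median log2 difference of -0.05 between L3 and L4. Of the 7 early embryo markers none reached 1 FPKM at L3 or L4, and 1 of 5 male markers did, with summed levels of 1.81 FPKM at L3 and 1.07 FPKM at L4. The L1 library was also high for many genes that were higher at L4. In 160 of the 550 (29.1%) the interval at L1 lay above that at L3, against 16.3% of all measured genes, and the rule favours this by its use of the L3 value. In number, 71 of the 550 had their highest level of the 4 libraries at L1. The highest level was at L4 in 422 of the 550.

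The cuticle made up the largest group of higher genes. Of 310 measured genes in 8 lists of the epidermis and cuticle, 96 (30.97%) were higher at L4 and 3 were lower, with a median log2 difference of 0.49, where 3.84% of all coding genes were higher. Of 136 *col* genes, which encode the collagens of the cuticle, 75 were higher and 1 was lower, with a median of 1.13. The 75 genes had a median level of 2.33 FPKM at L3 (0 to 324.5) and 60.3 FPKM at L4 (2.69 to 831.4). The FPKM of 72 of the 136 lay outside its own interval, and of the other 64 genes 37 were higher.

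*col-122* showed the largest difference of any collagen. It stood at 22.97, 0.554, 0.215 and 84.7 FPKM in the libraries L1 to L4, a log2 difference of 6.14 between L3 and L4. Its level at L4 lies above its interval of 63.7 to 77.6. *col-19*, a collagen known from the adult cuticle (chromosome X, 421707 to 422776 of ce10), stood at 14.4, 0.547, 0.318 and 50.5 FPKM in that order, the last above its interval of 37.3 to 47.4. *col-181*, also on X, was measured within its intervals at 24.8, 1.23, 0.584 (0 to 1.24) and 72.0 FPKM (65.7 to 78.4). All 3 were at or below 1.23 FPKM at L2 and L3, with L4 highest and L1 between. *col-84* (chromosome II, 11868535 to 11869688) instead had its second level at L2, at 1.68, 17.6, 5.66 (4.04 to 7.27) and 267.1 FPKM (255.7 to 281.1). *col-36* rose from 22.4 to 696.9 FPKM and *col-43* from 48.1 to 831.4 FPKM, the highest collagen among the 75 at L4, and both levels at L4 lie above their intervals.

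The higher collagens differed in their levels at L1 and L2. The rule used the L3 value and so favours genes with other stages above L3. Among all 136 *col* genes the interval lay above that at L3 in 26.5% at L1 and in 50.7% at L2, against 16.3% and 11.8% of all measured genes. In 30 of the 75 the interval at L1 but not at L2 lay above that at L3, and their median levels were 12.61, 0.592, 0.652 and 35.4 FPKM in the libraries L1 to L4. *col-106* was one of them, at 11.8, 0.247, 0.359 and 41.3 FPKM. In 27 others the interval at L2 but not at L1 lay above that at L3, with medians of 20.9, 164.2, 60.3 and 232.3 FPKM. These genes of the second pattern were abundant before L4, and their median log2 difference was 1.49 against 3.60 in the first. *col-12* and *col-14* show the dip at L3, at 27.2, 506.4, 179.4 and 398.2 FPKM and at 34.8, 339.4, 117.5 and 293.7 FPKM. For 5 genes both L1 and L2 lay above L3, and for 13 neither did, among them *col-163*, at 0.133, 0.352, 0.128 and 12.8 FPKM. *col-103* was the one collagen lower at L4, at 346.5, 105.5, 444.4 and 180.8 FPKM, all outside the intervals at L3 and L4. Collagens of near-identical sequence may share reads, so the level of a single member is less certain than that of the group.

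**Figure D2:**
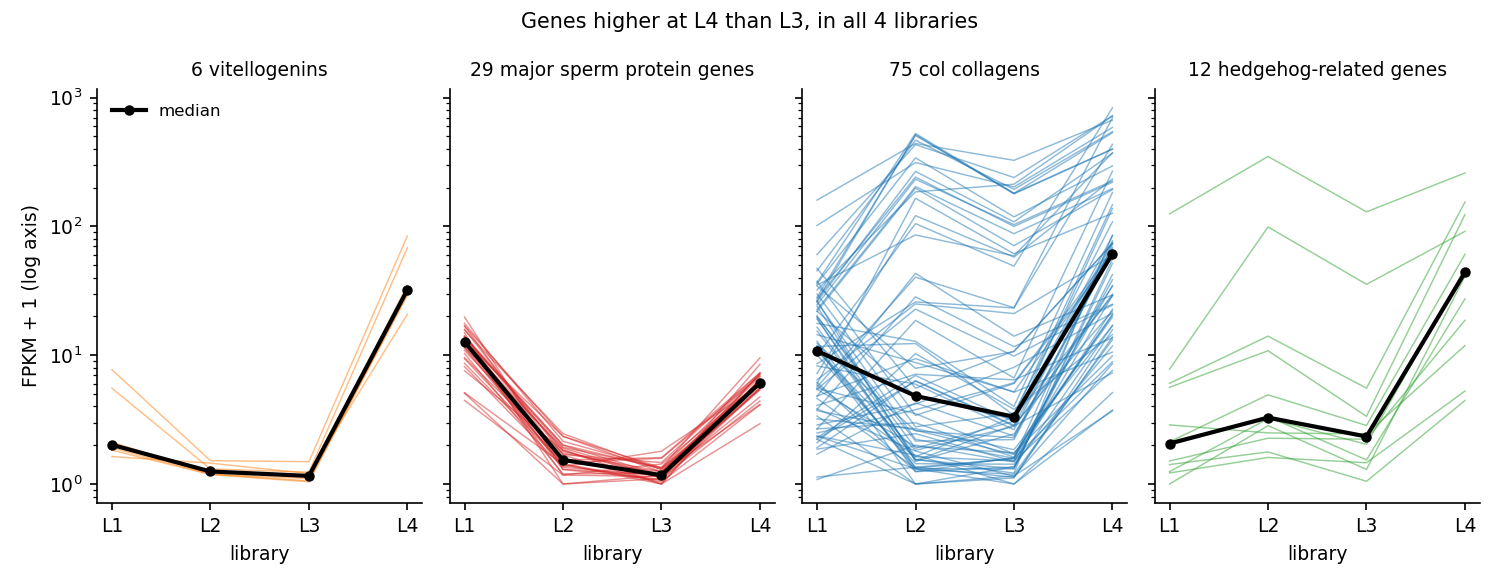
FPKM plus 1 on a logarithmic axis in the 4 libraries for the genes higher at L4, with 1 coloured line per gene and the median in black. All 4 medians are lowest at L2 or L3 except that of the hedgehog-related genes, which is lowest at L1, and the sperm genes alone have a median that is higher at L1 (11.7 FPKM) than at L4 (5.11 FPKM).

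Collagens known for their effect on body shape behaved differently. Of 19 measured, 3 (15.8%) were higher and 1 was lower, against 3.84% and 0.532% of coding genes, and the median log2 difference was 0.10. The 3 were blister genes, of which *bli-1* and *bli-2* encode collagens in the struts of the adult cuticle. *bli-1* stood at 4.54, 0.737, 5.34 (4.34 to 6.34) and 15.4 FPKM (13.3 to 16.9) from L1 to L4. *bli-2* rose from 6.08 to 25.6 FPKM and *bli-6* from 4.04 to 47.7 FPKM, the last above its interval. Intervals stood apart in 9 of the 19 with L4 higher and in 1 with L4 lower, against 10.4% and 6.60% of all measured genes. The most abundant measured members, *dpy-4*, *dpy-13* and *sqt-3*, had log2 differences of 0.59, 0.71 and 0.38. The levels of *dpy-4* and *dpy-13* lay outside their intervals. *dpy-7*, *dpy-10* and *dpy-2*, collagens of the cuticle furrows, differed by 0.04 or less on the log2 scale. *dpy-14* was the lower one, at 2.27 FPKM at L3 and 0.406 FPKM at L4. *rol-1*, a gene of the roller phenotype that is not in this list, rose from 1.23 to 24.5 FPKM, a log2 difference of 3.52. *dpy-5*, an abundant collagen at 1258 FPKM at L3, was left out because its estimate failed at L4. None of 16 enzymes that hydroxylate, cleave or cross-link collagens passed the rule, although all 16 had a difference above 0, with a median of 0.30.

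*cut-1*, a cuticlin gene, rose with them. It stood at 1.24, 9.98, 2.66 and 160.4 FPKM in the libraries L1 to L4, a log2 difference of 5.46, with the value at L4 above its interval of 135.7 to 153.9. *cut-6* rose from 1.16 to 7.95 FPKM and *cut-5* from 0.157 to 2.02 FPKM. These were the only 3 of 30 cuticlins and related genes (10%) that passed the rule, against 3.84% of coding genes higher, at a median of 0.18. None of 19 molting genes and none of 26 patched-related genes passed, with medians of 0.14 and 0.27. *mlt-8* was not measured because its estimate failed at L3. In the *mltn* family, related to *mlt-10*, 3 of 10 measured genes (30%) were higher, against 3.84% of coding genes, at a median of 0.84. All 3 were below 1 FPKM at L3 and so entered the comparison through L4.

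The hedgehog-related genes encode secreted proteins, most of them made by the epidermis, in the groups warthog, groundhog and ground-like. Of 46 measured, 12 (26.1%) were higher, against 3.84% of coding genes, and none was lower, at a median of 0.63. The ground-like genes accounted for 9 of the 12, out of 23 measured, the groundhog genes for the other 3 out of 12, and none of 9 warthog genes passed. *grl-23* stood at 4.64, 9.83, 2.35 (1.29 to 3.41) and 122.5 FPKM (113.9 to 131.3) from L1 to L4. *grl-20* stood at 5.05, 13.1, 4.54 and 153.5 FPKM, and *grl-17* at 0.247, 2.22, 1.03 and 46.0 FPKM. Their log2 differences were 5.20, 4.80 and 4.53. *grd-9* and *grd-7* were far lower in level, at 3.45 and 4.27 FPKM at L4. *wrt-6*, the warthog gene with the largest difference, had a log2 value of 0.91, from 9.95 to 19.6 FPKM, with intervals apart.

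Genes of the pharyngeal cuticle and glutamine-rich proteins differed less and peaked elsewhere. Of 68 *abu* and *pqn* genes 10 (14.7%) were higher and 2 were lower, against 3.84% and 0.532% of coding genes, at a median of 0.07. All 10 had an interval at L2 above that at L3, against 11.8% of all measured genes. The rule favours this by its use of the L3 value. In 7 of the 10 the level at L2 was also above that at L4. *abu-6* stood at 2.26, 81.9, 24.9 (21.9 to 27.99) and 64.3 FPKM (59.0 to 69.5) from L1 to L4. *abu-9* was highest at L4 instead, at 0.383, 6.15, 2.36 and 11.2 FPKM. The 7 *idpc* genes, 5 of which lie side by side on chromosome V next to *pqn-63*, were all higher too, 6 of them outside their intervals, but only *idpc-3* among them was highest at L4, at 2.56, 71.4, 25.28 and 75.04 FPKM. The *idpc* group was named after its values were seen, so its count does not stand beside those of the lists. The 2 lower genes, *srlf-35* and *srlf-37*, are listed in the files under older *pqn* names. Of 24 astacin metalloproteases, 3 (12.5%) were higher and 1 was lower, against the same shares of coding genes. Of the higher ones *nas-27* stood at 1.84 FPKM at L3 and 6.77 FPKM at L4.

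All 6 vitellogenin genes, which encode the yolk proteins, were higher at L4, against 3.84% of coding genes. *vit-6* (chromosome IV, 8261145 to 8266463) stood at 6.72, 0.518, 0.491 (0.124 to 0.959) and 83.3 FPKM (80.5 to 87.1) in the libraries L1 to L4. *vit-2* (chromosome X, 5101032 to 5106173) stood at 4.53, 0.309, 0.236 (0.0915 to 0.382) and 67.3 FPKM (64.6 to 70.5). Every member was below 0.5 FPKM at L3 and above 19 FPKM at L4, and so entered the comparison through L4. *vit-5*, *vit-3* and *vit-4*, near-identical copies on X whose reads may be split, reached 33.9, 28.6 and 28.4 FPKM, and *vit-1* reached 19.8 FPKM. The levels of all 6 at L1 were between 0.633 and 6.72 FPKM, each above that at L3 with intervals apart, against 16.3% of all measured genes. *ceh-60*, a homeobox gene known as a regulator of yolk genes, rose from 0.823 to 2.89 FPKM. *rme-2*, the yolk receptor of oocytes, stood at 1.54 FPKM at L3 and 2.92 FPKM at L4, a log2 difference of 0.63 that is below the bound.

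Lipid-binding genes included large changes in absolute level but did not rise as a list. *far-2*, which encodes a fatty acid and retinol binding protein (chromosome III, 9081679 to 9082890), stood at 157.4, 188.0, 408.1 (389.7 to 429.5) and 1510 FPKM (1470 to 1568) from L1 to L4. *far-3* stood at 18.7, 35.2, 41.7 and 174.9 FPKM. Both had their highest level at L4. They were 2 of 16 measured members of this list (12.5%), against 3.84% of coding genes higher, and the other 14 did not pass the rule. The median of the 16 was -0.12, with intervals apart in 3 genes above and 6 below, against 10.4% and 6.60% of all measured genes. *far-1*, more abundant still, stood at 2609 FPKM at L3 and 2251 FPKM at L4. Among 16 desaturases and elongases of fatty acids 3 (18.75%) were higher, against 3.84% of coding genes. The median of this list was -0.06, with intervals apart in 4 genes above and 6 below, against the same 10.4% and 6.60%. *fat-5*, a palmitic acid desaturase, rose from 6.03 to 26.3 FPKM, *fat-7*, a stearic acid desaturase, from 0.281 to 2.45 FPKM, and *elo-4* from 8.43 to 23.6 FPKM. *fat-6*, the close relative of *fat-7*, stood at 337.7 FPKM at L3 and 365.1 FPKM at L4.

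Genes of sperm were higher at L4 than at L3. Of 110 measured genes in 4 sperm lists 51 (46.4%) were higher, against 3.84% of coding genes, and none was lower. The list of *nsp* peptide families made up 53 of the 110, with 8 higher and 44 outside their intervals, and its member *nspc-20* stood at 163.5 FPKM at L2 and 247.3 FPKM at L3, stages at which *msp* genes were near 0. Without this list 43 of 57 sperm genes were higher. A gene below 1 FPKM at L3 was measured only if it reached 1 FPKM at L4, so it could not be called lower. The shares of sperm genes called thus depend in part on the FPKM bound. Of 31 measured genes of the major sperm protein, the motor protein of the crawling sperm, 29 were higher at L4. *msp-81* stood at 18.8, 0.295, 0.0858 (0 to 0.568) and 7.50 FPKM (2.80 to 7.84) from L1 to L4, and *msp-50* at 7.16, 0.347, 0.168 and 6.10 FPKM. In all 29 genes the interval at L1 was above that at L3, against 16.3% of all measured genes. The rule favours this by its use of the L3 value. In 27 of the 29 the level at L1 was above that at L4. The 29 genes ranged from 3.46 to 18.8 FPKM at L1, from 0 to 0.798 at L3 and from 1.94 to 8.54 at L4. All 29 therefore entered the comparison through their level at L4. These genes are near-identical copies, so reads may have been split among them and single members are uncertain. The protein-coding genes among them lie on chromosome II, with 10 genes, and on chromosome IV, with 18 genes.

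Other sperm families were also higher at L4. Of 14 measured genes in the *msd*, *ssp* and *ssq* families 11 (78.6%) were higher, against 3.84% of coding genes. At L3, 7 of these 11 were listed at 0. *msd-4*, which encodes a protein with a major sperm protein domain, stood at 10.3, 0.383, 0 and 4.39 FPKM in the libraries L1 to L4. These 11 stood at most at 0.204 FPKM at L3 and so entered the comparison through L4. All 11 also had an interval at L1 above that at L3, against 16.3% of all measured genes. The rule favours this by its use of the L3 value. The 3 *spch* genes, which encode proteins of sperm chromatin, were higher at L4 too, with *spch-3* at 3.26, 0.271, 0.0874 and 3.70 FPKM. The *spch* group was named after its values were seen. It stood at most at 0.0986 FPKM at L3, so it too entered through L4. Few genes of the spermatogenesis list were abundant enough to compare. Of its 43 members 12 were measured, and 3 of these (25%) were higher, against 3.84% of coding genes. *spe-44*, a transcription factor of spermatogenesis, stood at 0.251, 0.374, 0.423 (0.159 to 0.687) and 1.97 FPKM (1.25 to 2.66). *cpb-1*, an RNA-binding protein needed for spermatogenesis, rose from 0.944 (0.569 to 1.2998) to 3.28 FPKM (2.40 to 4.08). *gsp-3*, a sperm protein phosphatase, was listed at 0 at L3 and at 1.46 FPKM at L4. Unlike the *msp* genes, *spe-44* and *cpb-1* were both below 1 FPKM in the L1 library. *fog-1* and *fog-3*, which set the sperm fate, went from 8.36 to 16.7 FPKM and from 2.78 to 5.59 FPKM, differences of 0.92 and 0.80 that did not reach the bound.

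Most germline genes were above their L3 level by less than the bound. Of 94 measured germline genes 16 (17.02%) were higher, against 3.84% of coding genes, and none was lower. With a pseudocount of 0.1 the number higher became 14 in place of 8 for meiotic genes and 5 in place of 3 for regulators of germline stem cells and translation. The 7 germline markers summed to 37.5, 53.0, 74.9 and 166.3 FPKM in the libraries L1 to L4, and 4 of them were higher at L4. P granules are the RNA-protein bodies of germ cells. Their Vasa-like helicase *glh-1* (chromosome I, 6854688 to 6857537) stood at 13.5, 25.12, 31.8 (27.6 to 33.8) and 74.5 FPKM (66.1 to 74.7). *pgl-3*, a scaffold protein of these bodies, stood at 1.48, 2.53, 1.92 (1.34 to 2.49) and 7.67 FPKM (6.50 to 8.85). L4 was the highest library for both. All 13 measured P granule genes had a log2 difference above 0 and 9 had intervals apart, where 10.4% of all measured genes had intervals apart with L4 higher, a share that depends on the level of a gene. Among the 13 only *glh-1*, *pgl-3* and *glh-2* passed the rule. *gld-1*, a translational repressor needed for meiotic progression, stood at 10.3, 8.999, 15.8 (13.9 to 17.8) and 34.95 FPKM (32.0 to 37.9). *fbf-1*, which maintains germline stem cells, rose from 2.26 to 5.85 FPKM.

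The higher meiotic genes belonged mainly to the chromosome axis and the synaptonemal complex. Of 29 measured, 26 had a difference above 0 and 17 had intervals apart, against 10.4% of all measured genes. The rule was passed by 8 (27.6%), against 3.84% of coding genes higher, and the median of the list was 0.74. The 8 ranged from 1.06 to 4.18 FPKM at L3 and from 3.36 to 10.9 FPKM at L4. *htp-1*, a HORMA-domain protein of the axis, stood at 2.23, 2.21, 2.44 (1.47 to 3.37) and 8.29 FPKM (5.81 to 9.55) from L1 to L4. All 3 *htp* genes passed. *syp-2*, which encodes a central element of the synaptonemal complex, stood at 1.85, 0.922, 1.15 (0.392 to 1.86) and 5.16 FPKM (2.996 to 6.47). Of the 6 *syp* genes 3 passed, and all 6 had their highest level at L4. The *htp* and *syp* groups were named after their values were seen, so their counts do not stand beside those of the lists. *rec-8*, the meiotic cohesin, rose from 4.18 (2.82 to 6.99) to 10.9 FPKM (8.82 to 14.1). The plot of meiotic genes shows that the 3 with a difference below 0 include *him-8*, whose 27.04 FPKM at L3 and 2.77 FPKM at L4 have wide intervals that overlap.

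**Figure D3:**
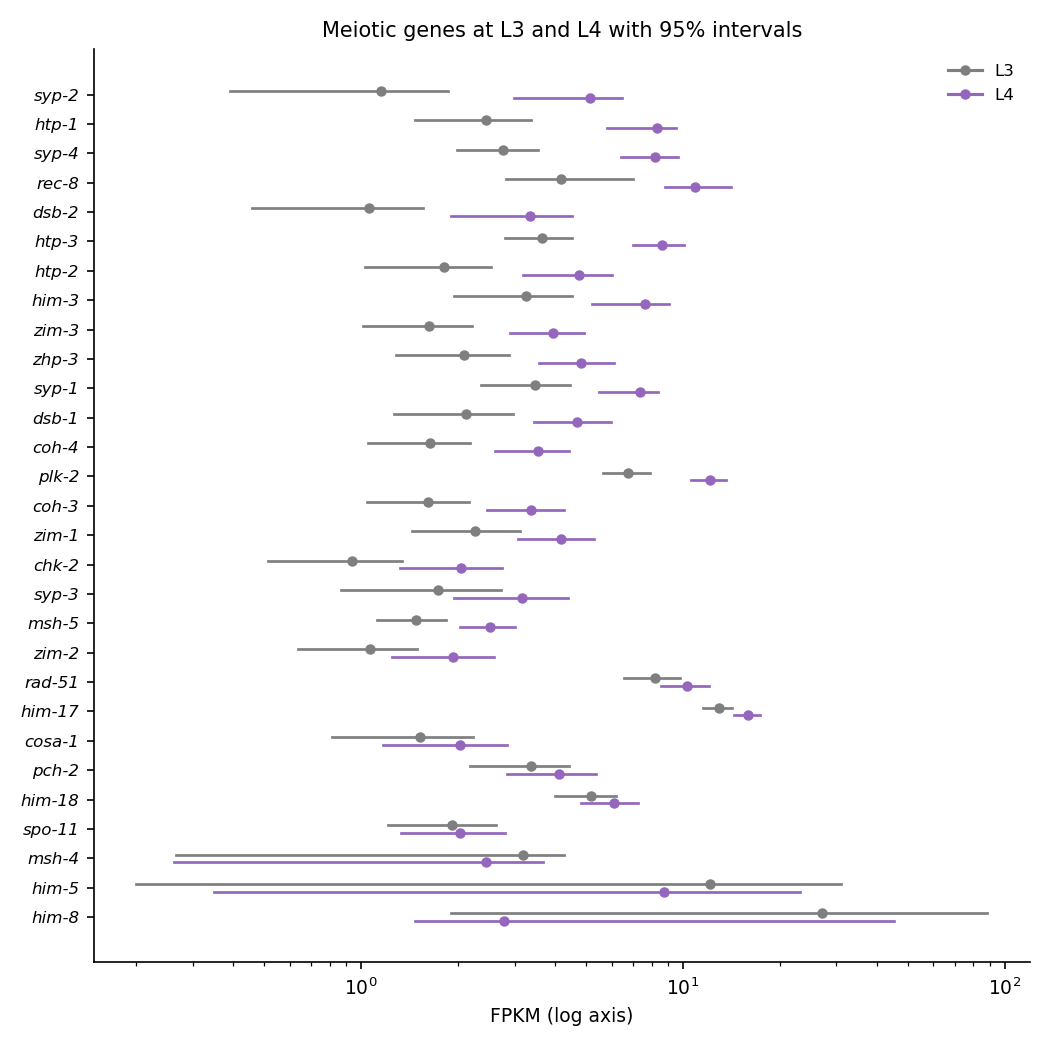
FPKM on a logarithmic axis of 29 meiotic genes, ordered by log2 difference, with points for the level at L3 (grey) and at L4 (purple) and lines for the 95% intervals, bounds below 0.2 FPKM being drawn at 0.2. The purple points lie to the right of the grey ones in 26 of the 29 genes, and the intervals of 17 genes stand apart with L4 higher.

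Few small RNA genes passed the rule. None of 14 genes of the piRNA pathway did, at a median of 0.60, although 13 lay above 0 and 8 had intervals apart, against 10.4% of all measured genes. The median of all 94 measured germline genes, which include them, was 0.61. Of 19 genes of the 22G-RNA and mutator pathways 2 (10.5%) were higher, against 3.84% of coding genes, at a median of 0.25. None of 31 DNA replication genes and none of 24 cyclins and mitotic kinases passed, at medians of 0.32 and 0.43.

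A few oocyte genes were higher. Of 34 measured genes in the oocyte lists 6 (17.6%) were higher, against 3.84% of coding genes. With a pseudocount of 0.1 the number among the 19 oocyte and maternal regulators became 5 in place of 2. *mex-5*, an RNA-binding protein stored for the embryo, stood at 4.58, 3.09, 4.07 (3.19 to 4.96) and 10.3 FPKM (8.76 to 11.8) from L1 to L4, and *puf-3*, a Pumilio-family protein, rose from 0.674 to 2.74 FPKM. Both had their highest level at L4. *oma-1*, a gene of oocyte maturation, went from 2.90 to 6.07 FPKM, a difference of 0.86. All 15 measured eggshell genes had a difference above 0 and 4 passed. *cbd-1*, a chitin-binding protein of the eggshell, stood at 3.68, 3.08, 5.36 (4.64 to 6.07) and 14.5 FPKM (13.4 to 15.8), and *cpg-1*, an eggshell proteoglycan, rose from 5.20 to 12.32 FPKM. The largest changes were in *perm-2* and *perm-4*, which encode proteins of the eggshell permeability barrier and lie close together on chromosome IV. *perm-4* stood at 2.49, 0.160, 0.0773 and 10.2 FPKM and *perm-2* at 6.44, 0.173, 0.503 and 12.56 FPKM, so both were near 0 at L2 and L3 and present at L1.

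Of 15 measured genes in the list of gonadal sheath, spermatheca and distal tip cell genes 2 (13.3%) were higher, against 3.84% of coding genes. *inx-22*, an innexin of the junctions between sheath cells and oocytes, rose from 1.13 to 3.88 FPKM, and *fkh-6*, a forkhead factor of the gonad, from 1.35 to 4.31 FPKM. Such junctions join somatic cells to germ cells, and whole worms do not show in which of them *inx-22* rose. None of 29 vulva and uterus genes passed, at a median of -0.04. The 5 *ule* genes, known for proteins of the uterine lumen, were all higher, with L4 the highest library for each. This group was named after its values were seen. Its members stood at most at 0.142 FPKM at L3, so all 5 entered the comparison through L4. *ule-2* stood at 0.739, 0.147, 0.142 and 2.95 FPKM. The other 4 were listed at 0 at L3, and *ule-4*, the most abundant, reached 13.1 FPKM at L4. *lin-29*, the zinc finger factor of the larval-to-adult switch, went from 10.03 (8.64 to 11.4) to 19.4 FPKM (17.4 to 21.3), a log2 difference of 0.88. None of the 14 measured heterochronic genes passed the rule.

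**Figure D4:**
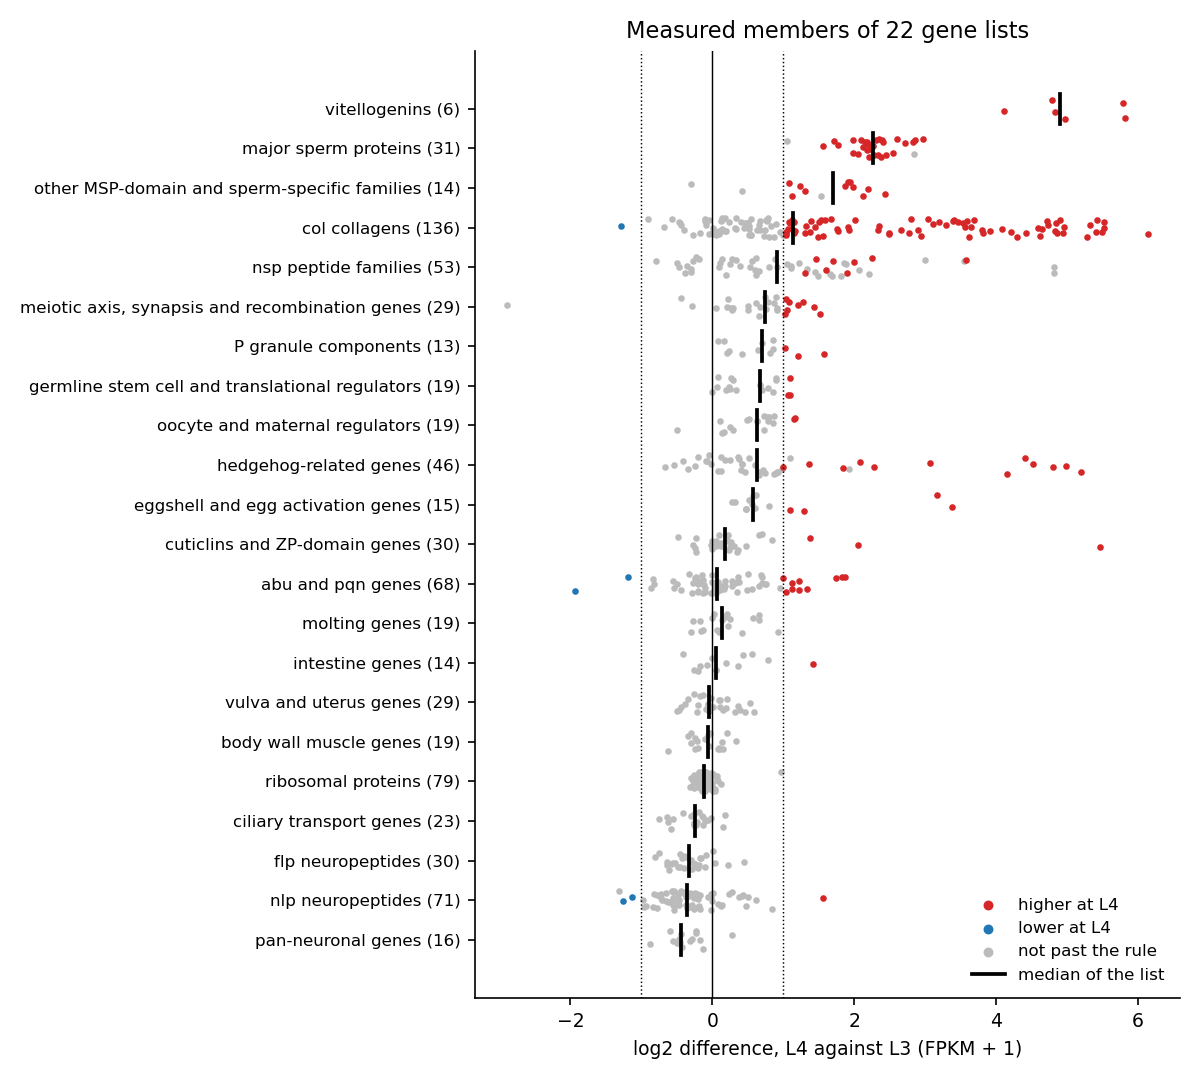
Log2 difference between L4 and L3 of the measured members of 22 gene lists, with the number measured in brackets, red points for higher genes, blue for lower, grey for genes not past the rule and a black bar for the median. Vitellogenins and sperm families have the medians farthest to the right, those of the germline lists sit between 0 and 1, and those of the neuronal lists lie to the left of 0.

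Intestinal and defence genes gave scattered members rather than a shift of the list. The median of 14 intestine genes was 0.06, of 99 C-type lectins 0.08, of 63 cytochrome P450 genes 0.14 and of 56 UDP-glucuronosyltransferases -0.03. Of the C-type lectins 9 (9.09%) were higher and 1 was lower, against 3.84% and 0.532% of coding genes. *clec-60* and *clec-61*, neighbours on chromosome II, stood at 0.245, 1.70, 2.12 and 6.66 FPKM and at 0.337, 2.09, 1.298 and 8.64 FPKM in the libraries L1 to L4. *ttr-14*, a transthyretin-like gene, rose from 0.288 to 5.39 FPKM. *mtl-1*, a metallothionein, rose from 79.9 to 215.6 FPKM, with both values outside their intervals. None of 16 chaperones and none of 6 *hsp-16* heat shock genes passed the rule. The summed levels of the intestine and body wall muscle markers were close in both stages, at 1864 and 1781 FPKM and at 2792 and 2851 FPKM.

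Many higher genes lay next to each other. Of the 498 higher coding genes 165 (33.1%) had a higher gene as a direct neighbour among the measured coding genes, against 7.23% of all 12976. There were 17 runs of at least 3 higher genes, with 77 genes in all. The longest held 13 genes on chromosome V, from 7252325 to 7309556 of ce10, among them 6 *gtnt* genes. In it *C13A2.9* stood at 0, 1.23, 0.216 and 23.1 FPKM in the libraries L1 to L4 and *F07G11.1* at 0.358, 0.949, 0.115 and 15.9 FPKM. A run of 6 *pud* genes lies on the same chromosome from 2322038 to 2330930. All 6 were higher, but 5 lay outside their intervals and the copies overlap or are near-identical, and *pud-4* was the one measured within its intervals, at 9.49, 19.7, 12.5 and 38.1 FPKM. The *pud* group was named after its values were seen. Runs on chromosome IV held *msp* genes with other sperm genes.

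Among the nuclear chromosomes the share of higher coding genes was largest on V, at 4.85% (131 of 2703), and on IV, at 4.83% (105 of 2175), and smallest on III (36 of 2003). On IV it became 3.21% without *col* and *msp* genes, against 4.30% on V and 1.61% on III.

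Of 2241 genes that are not protein-coding 52 were higher and 14 were lower, against 3.61% and 0.545% of all measured genes. Of the 52, 23 (44.2%) overlap a higher coding gene, against 1.52% of the 2241. K12D12.9, a short RNA that overlaps *col-84*, was listed at 0 at L3 and at 584.2 FPKM at L4, far above its interval of 25.9 to 48.8, and F59D8.3, which overlaps *vit-4*, at 0 and 356.2 FPKM. Reads of such pairs cannot be told apart where the counting did not use strand, which the sources used here do not say.

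The 83 lower genes had median levels of 8.93 FPKM at L3 and 0.980 FPKM at L4, 33 of them stayed under 5 FPKM, and 31 were listed at 0 at L4. The highest of the 4 libraries was L3 for 49 genes, L1 for 25 and L2 for 9. Of the 83 genes 18 (21.7%) belong to a gene list, against 218 (39.6%) of the 550 higher genes and 13.4% of all measured genes. The largest fall in level within the intervals was in C08E3.1, on chromosome II, at 528.3, 587.3, 622.8 (552.4 to 694.4) and 209.9 FPKM (170.7 to 249.2) from L1 to L4. C01G10.15 stood at 548.7, 188.8, 315.6 (281.2 to 350.9) and 136.5 FPKM (115.0 to 158.8). It is the first of 4 neighbours on chromosome V that were lower, the only such run, of which the other 3 lay outside their intervals. No role is given for either gene.

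Lower genes with known functions included enzymes, signals and transcription factors. *hil-7*, a gene of the linker histone family, stood at 24.6, 80.9, 17.2 and 4.62 FPKM (2.02 to 7.29 at L4) from L1 to L4. *cyp-35A4* and *cyp-35A3*, cytochrome P450 genes, were highest at L3, at 1.61, 1.42, 6.02 and 1.09 FPKM and at 3.93, 5.18, 12.9 and 4.39 FPKM. Of the 5 *cyp-35A* genes 2 were lower, against 0.532% of coding genes, in a group named after its values were seen. *daf-7*, the TGF-beta ligand that a pair of sensory neurons makes, declined through all stages, at 62.8, 39.9, 23.5 (18.9 to 24.0) and 10.6 FPKM (8.18 to 12.19). Of 43 *ceh* homeobox genes 3 were lower and 2 (4.65%) were higher, against 0.532% and 3.84% of coding genes. *ceh-16*, the homolog of engrailed, went from 7.34 to 2.57 FPKM, *ceh-10* from 2.03 to 0.381 FPKM and *ceh-17* from 3.02 to 0.828 FPKM. *cav-1*, which encodes a caveolin, stood at 16.4, 25.8, 4.74 and 1.40 FPKM. *hrg-2*, a heme-responsive gene, and *nlp-45*, a neuropeptide-like gene, had L3 as their highest library, at 7.24 and 11.2 FPKM, and stood at 2.14 and 4.09 FPKM at L4.

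**Figure D5:**
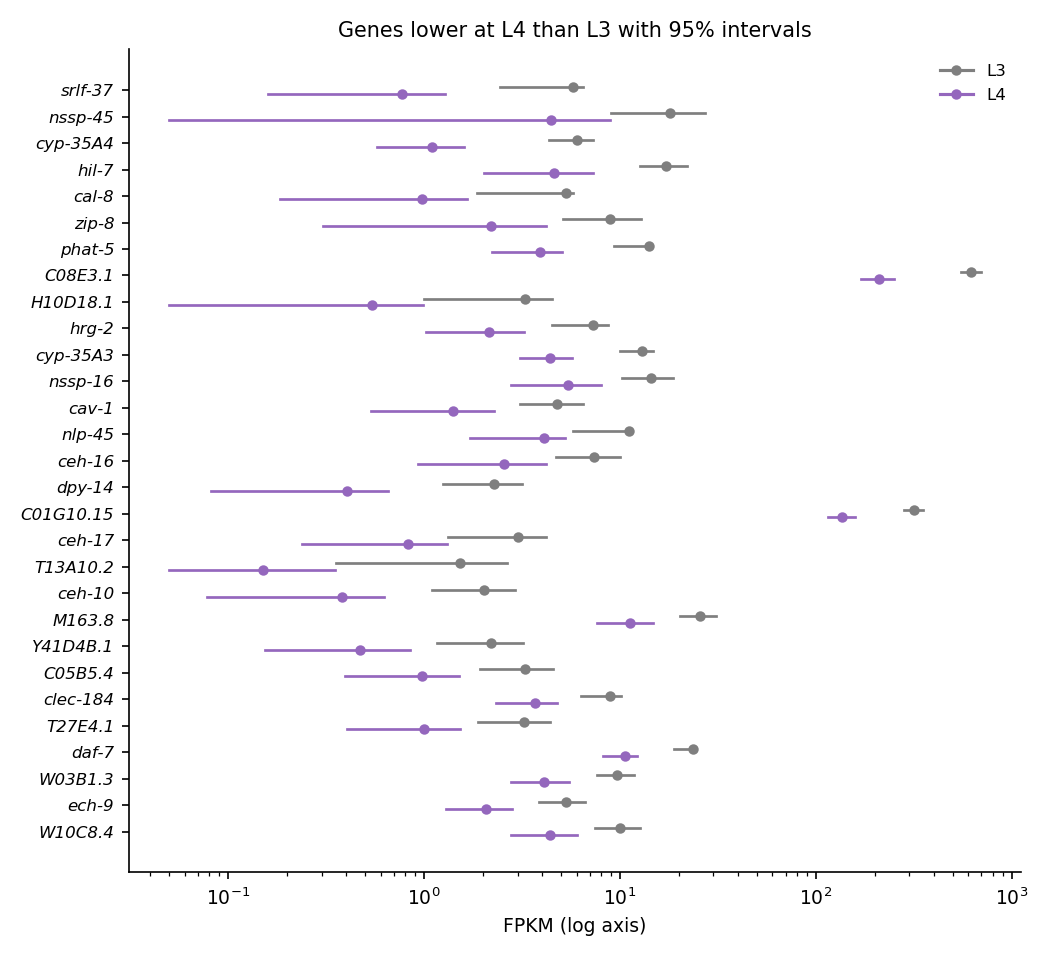
FPKM on a logarithmic axis of the 29 protein-coding genes lower at L4 whose levels lie above 0 and inside their intervals, with points for the level at L3 (grey) and at L4 (purple) and lines for the 95% intervals, bounds below 0.05 FPKM being drawn at 0.05. C08E3.1 and C01G10.15 stand above 100 FPKM in both stages, and the other genes all lie below them.

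Neuronal genes lay somewhat lower, and few passed the rule. Of 198 measured genes in 6 neuronal lists 3 were higher and 3 were lower, each 1.52%, against 3.84% and 0.532% of coding genes. The lower ones were *nlp-45*, *nlp-89* and *ins-25*, the last listed at 0 at L4. The median log2 difference was -0.31, against -0.00 for all genes. Of 16 pan-neuronal genes 15 lay below 0, at a median of -0.44, and 9 of them had intervals apart, against 6.60% of all measured genes with L4 lower. The same held for 11 of 17 genes of pharyngeal muscle and gland, at a median of -0.32. *rab-3*, which encodes a synaptic vesicle GTPase, stood at 69.4, 69.5, 62.2 (57.1 to 67.4) and 40.9 FPKM (36.9 to 44.9) from L1 to L4. *egl-21*, a carboxypeptidase that processes neuropeptides, stood at 290.3, 180.5, 171.0 (163.6 to 179.7) and 124.8 FPKM (118.1 to 131.8). L4 was the lowest library for both. The medians were -0.33 for 30 *flp* and -0.36 for 71 *nlp* neuropeptide genes. Ribosomal protein genes showed a smaller shift in the same direction, with 69 of 79 below 0, 48 with intervals apart and a median of -0.12. None of the 79 passed the rule.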

How the data were processed

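Whole-worm poly(A) RNA of the *prg-1* mutant was sequenced by the authors, 1 library per larval stage. Per the submitters' processing notes, TopHat2 2.0.8, Cufflinks 2.1.1 and the build ce10 were used, and the deposited FPKM values, 95% intervals and status flags come from the authors' Cufflinks run. Which annotation was used, how multiply mapped reads were handled and whether strand was used is not given in the sources used here. Depth was compared through low genes only, and the number of libraries limits the precision. Totals of mappable mRNA reads per stage are listed in the paper and are slightly larger for L4 than for L3. They did not enter the comparison of depth.

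L3 and L4 rows were joined on gene and locus. Of 46096 genes, 45513 had the status OK in both, 44817 matched RefSeq names and 45690 had a biotype. Genes of at least 1 FPKM in one stage were compared as log2(FPKM + 1), a scale that understates changes of low genes. A gene was called at a 2-fold difference with intervals that did not overlap. No test was run, and no fold is given against a level of 0. Python 3.11.15, numpy 2.4.6, pandas 2.3.3 and matplotlib 3.10.9 were used, and the scripts were tested on simulated data. The 60 gene lists and 194 symbol families (at least 8 measured members) matched the file's name or the RefSeq symbol, and the chemoreceptor pattern was corrected once after the files were seen. The members and lists were chosen with earlier results of these data known. Named genes were the 15 called genes with the largest difference and the 5 with the largest FPKM difference in each direction, leading and most abundant members of each list and family, cell type markers and the genes at the bounds. Outside this rule, *lin-14*, *lin-28*, *lin-29*, *fog-3*, *daf-7*, *cav-1*, *fat-6*, *wrt-6*, *dpy-2*, *dpy-5*, *dpy-10*, *rol-1*, *clec-60*, *msp-50*, *spch-3*, *pud-4*, *idpc-3*, *pqn-63*, *ule-2*, *ule-4*, *C13A2.9*, *F07G11.1*, C01G10.15 and the collagens *col-12*, *col-14*, *col-36*, *col-43*, *col-84*, *col-106* and *col-163* were named after their values were seen, as were the *ule*, *pud*, *idpc* and *spch* groups. The *htp*, *syp* and *cyp-35A* groups were also named after their values were seen. Alternatives changed the pseudocount, the FPKM minimum, the use of intervals, the fold, the scaling and the treatment of uncertain levels.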

Additional observations from a re-analysis of the deposited data

How the results depend on the processing

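With 1 library per stage no spread between worms could be measured, the intervals describe each estimate alone, and genes at low levels rest on few fragments. No paired analysis was possible because only 1 library was made per stage. Counts are given as higher and lower at L4, against 550 and 83. A pseudocount of 0.1 gave 695 (all 550 kept) and 130, and raised the median log2 difference of vitellogenins to 7.43, of the *msp* genes to 4.06 and of the other sperm families to 3.61. Without the FPKM minimum this last median was 1.08. The fold without the intervals gave 1217 and 761, a 4-fold bound 204 and 16, and nearest interval bounds 2-fold apart 202 and 5. Leaving out genes outside their own interval left 426 and 53. Keeping genes above 0 in both stages, an alternative chosen after seeing the data, left 416 and 52. Scaling by the median ratio gave 547 and 84, and scaling to equal FPKM sums 490 and 81. The number of lists with at least 20% of members higher was 9, and became 14 with the pseudocount of 0.1, 4 at 4-fold and 5 with the bounds apart. For symbol families it was 12, and became 4 at 4-fold, 7 without genes outside their interval and 6 with the bounds apart. The share of higher genes on chromosome V was 2.70 times that on III, and 4.55 times at 4-fold and 4.45 times with the bounds apart. No gene called higher was called lower under these alternatives, nor the reverse. Differences near 0 could change sign with the scaling, and the causes of the shifts were not tested.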
